A study of Mus musculus with 7 samples.

Results

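Transcripts of 9 genes that receive or end the acetylcholine signal were followed in mouse hippocampus: the muscarinic receptors Chrm1 to Chrm5, the nicotinic subunits Chrna4, Chrnb2 and Chrna7, and the esterase Ache. They were picked by gene symbol from a table of 21965 genes, each matched 1 row, and all 9 passed the low-count filter that left 14417 genes to test. The Control group, labelled a blank control, held 3 libraries. The NIHHL group (noise-induced hidden hearing loss) held 4 libraries from mice exposed to noise of 110 dB for 2 h, and the study took hippocampus 1 month after induction. The labels give neither strain, sex nor age, and they do not tie libraries to animals, so the p-values below measure the spread between these libraries, which may be technical.

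Acetylcholine reaches the hippocampus mainly from axons of the medial septum and diagonal band, and it sets the rhythm and excitability of the circuit during exploration and learning. Muscarinic receptors are G protein-coupled: M1, M3 and M5 act through Gq and phospholipase C, and M2 and M4 through Gi and Go, which lower cyclic AMP and open potassium channels. Nicotinic receptors are ion channels built of several subunits, in the brain chiefly of alpha4 with beta2 or of alpha7 alone, and acetylcholinesterase splits the transmitter in the synaptic cleft.

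Total counts ran from 14871376 to 24515146 per library. Markers of the dentate gyrus and of CA1 were present in every library, with Prox1 at 101 to 166 CPM and Wfs1 at 65.7 to 131 CPM (counts per 1e+06, scaled between libraries). Transcript length divided the libraries: the Spearman correlation across genes between length and a library's log2 deviation from the mean of all libraries was 0.45 in Control replicate 1 and 0.52 in NIHHL replicate 4, against -0.58 in Control replicate 2 and values from -0.33 to 0.11 in the other 4. The 8383 genes used had mean log2 CPM over 4; genes are not independent. Values that follow this division are pointed out below.

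Relative to exon length, Chrm1 was by far the most abundant member. Its mean level over the 7 libraries was 32.6 CPM per kilobase of exon, 3.89 times that of Chrm3 at 8.40, and the ranges of the pair did not overlap. Chrnb2 followed at 7.53, Ache at 6.75, Chrm4 at 5.32, Chrna4 at 4.2 and Chrna7 at 3.37 CPM per kilobase. From Chrm3 down to Chrna7 each neighbour in this order overlapped the next in range, although Chrm4 stood above Chrna4, and Chrna4 above Chrna7, in 7 of 7 libraries. A clear step separated Chrna7 from Chrm2, at 1.41 CPM per kilobase, and Chrm5 came last at 1.08 with a range that overlapped that of Chrm2. Lengths were taken from GENCODE vM21 (GRCm38), and the annotation behind the counts was not given in the sources used here. In that annotation Chrm4 and Chrm5 are single exons of 1440 and 1599 bases, of which 1437 and 1596 are coding. Their levels per kilobase would be too high if reads from untranslated exons had been counted as well.

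**Figure D1:**
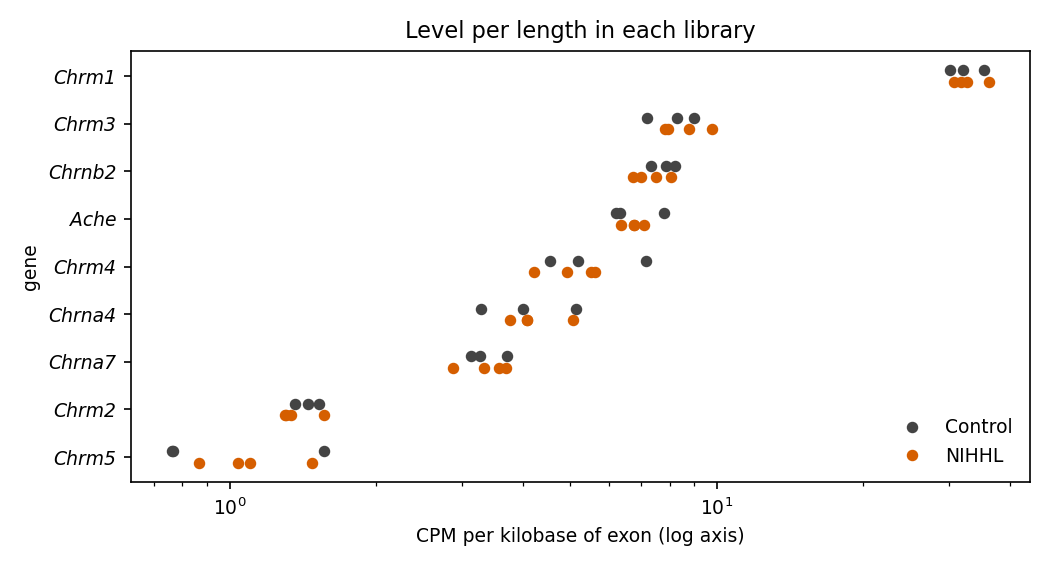
Level of each gene in each library in CPM per kilobase of GENCODE vM21 exon (log axis), with 1 point per library, Control in dark grey and NIHHL in orange. Chrm1 stands apart at a mean of 32.6, Chrm2 and Chrm5 lie lowest, and the points of the groups intermingle for every gene.

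The Gq-coupled receptors came first. Chrm1 (ENSMUSG00000032773, chromosome 19, 8663789 to 8683587, plus strand), the main muscarinic receptor of hippocampal pyramidal cells, was at 229, 207 and 195 CPM in Control replicates 1 to 3 and at 199, 212, 206 and 235 CPM in NIHHL replicates 1 to 4. The highest NIHHL library stood just above the highest Control library and the other 3 lay inside the Control range. The group means were 211 ± 17.2 CPM in Control and 213 ± 15.5 CPM in NIHHL (SD, n = 3 and 4). The log2 fold change, NIHHL minus Control, was 0.02 with a standard error (SE) of 0.08 and a 95% interval of 0.896-fold to 1.14-fold (edgeR's quasi-likelihood test, adjusted p = 0.999). In whole tissue, fewer cells of a type and less RNA per cell cannot be told apart, here or for any gene below. With 3398 to 4941 counts per library, counting error on Chrm1 was 0.0227 on the log2 scale against a within-group SD of 0.11, so the spread between libraries was 4.78 times the counting error. Chrm1 made up 63.0% to 68.8% of the summed muscarinic CPM per kilobase in the 7 libraries, with means of 66.6% ± 3.16 in Control and 67.0% ± 1.296 in NIHHL (SD, n = 3 and 4).

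Chrm3 (ENSMUSG00000046159, chromosome 13, 9875486 to 10360847, minus strand) encodes the second Gq-coupled receptor of the tissue. Its CPM values were 56.2, 44.9 and 51.9 in the Control libraries and 54.8, 49.0, 49.7 and 61.2 in the NIHHL libraries. NIHHL replicate 4 was highest and Control replicate 2 lowest, with the rest interleaved. Control averaged 51.0 ± 5.67 CPM and NIHHL 53.7 ± 5.63 CPM, a log2 fold change of 0.08 (SE 0.10, adjusted p = 0.996 by edgeR).

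Chrm5 (ENSMUSG00000074939, chromosome 2, 112479171 to 112480769, minus strand), a receptor known best from midbrain dopamine neurons, was scarce. It had 37, 29 and 26 counts in the Control libraries and 30, 29, 32 and 40 in the NIHHL libraries, or 2.5, 1.22, 1.23, 1.38, 1.67, 1.76 and 2.36 CPM in the same order. The exact Poisson 95% interval of a single library, which covers counting error only, reached from 1.76 to 3.44 CPM in Control replicate 1 and from 0.815 to 1.75 CPM in Control replicate 2. Control replicate 1 and NIHHL replicate 4 were highest, so the high values came from both groups. These are also the 2 libraries with more signal from long transcripts, although the Chrm5 gene model is short. Its log2 fold change was 0.15 with an SE of 0.32 and an interval of 0.685-fold to 1.80-fold (edgeR, adjusted p = 0.996), the widest among the members.

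Of the Gi-coupled pair, Chrm2 (ENSMUSG00000045613, chromosome 6, 36388084 to 36528414, plus strand), which is known as an autoreceptor on cholinergic terminals and a receptor of interneurons, hardly varied. It was at 9.24, 8.27 and 8.77 CPM in the Control libraries and at 7.92, 7.87, 8.09 and 9.44 CPM in the NIHHL libraries. In NIHHL, 3 libraries lay below every Control library and replicate 4 lay above all of them. The within-group SD of 0.11 on the log2 scale was 0.948 times the counting error expected from 137 to 197 counts, and only 10.1% of 1724 tested genes within 0.5 log2 units of the level of Chrm2 had an SD as small or smaller. The log2 fold change was -0.07 (SE 0.12, interval 0.793-fold to 1.14-fold, edgeR, adjusted p = 0.996).

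Chrm4 (ENSMUSG00000040495, chromosome 2, 91927249 to 91928688, plus strand), a Gi-coupled receptor that restrains transmitter release and is abundant in striatum, moved more between libraries. Its CPM values were 6.54, 7.47 and 10.3 in Control and 7.96, 8.10, 7.10 and 6.08 in NIHHL. Control replicate 3 stood above all others and NIHHL replicate 4 below. The mean of 7.31 ± 0.935 CPM in NIHHL lay within the Control spread of 8.11 ± 1.97 CPM, and the log2 fold change was -0.15 (SE 0.17, adjusted p = 0.996 by edgeR). Without Control replicate 3 it was 0.06, so the direction rested on that library. The summed CPM of 10 striatal markers was 172 in Control replicate 3, near the low end of the range of 167 to 216 over the 7 libraries.

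RefSeq start-site windows (GRCm38.p6, from 250 bases before to 50 after the annotated start) were matched for 8 of the 9 members. Those of Chrm4 and Chrna4, which were both highest in Control replicate 3, are printed beside that of Chrm2, the Gi-coupled receptor with the smallest spread. Capitals mark the GC box GGGCGG on the printed strand or its complement CCGCCC on the other; overlapping matches run together.
Chrm4 (chr2:91921939-91922238, + strand): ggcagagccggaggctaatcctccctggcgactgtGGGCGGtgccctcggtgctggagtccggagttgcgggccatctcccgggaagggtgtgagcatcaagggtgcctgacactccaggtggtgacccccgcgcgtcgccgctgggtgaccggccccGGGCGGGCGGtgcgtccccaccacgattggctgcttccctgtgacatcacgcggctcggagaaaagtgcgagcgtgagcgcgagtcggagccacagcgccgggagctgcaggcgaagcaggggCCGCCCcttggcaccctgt
Chrna4 (chr2:181039128-181039427, - strand): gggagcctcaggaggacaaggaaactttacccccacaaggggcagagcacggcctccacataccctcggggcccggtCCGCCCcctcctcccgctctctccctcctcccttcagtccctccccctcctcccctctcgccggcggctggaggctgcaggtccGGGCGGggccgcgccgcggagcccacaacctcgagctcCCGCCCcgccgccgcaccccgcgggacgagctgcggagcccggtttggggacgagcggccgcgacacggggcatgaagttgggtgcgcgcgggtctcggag
Chrm2 (chr6:36387834-36388133, + strand): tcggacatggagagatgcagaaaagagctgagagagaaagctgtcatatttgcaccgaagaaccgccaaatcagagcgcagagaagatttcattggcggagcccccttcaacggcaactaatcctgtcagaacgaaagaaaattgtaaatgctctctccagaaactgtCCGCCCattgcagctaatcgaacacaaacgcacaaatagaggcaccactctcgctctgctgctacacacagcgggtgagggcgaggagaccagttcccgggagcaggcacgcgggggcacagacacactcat
The Chrm4 window held 4 matches and 70.7% G or C, the Chrna4 window 3 matches and 74.3%, and the Chrm2 window 1 match and 52.7%. Among 32851 windows of this length 35.7% held at least 1 match, and the median share of G or C was 52.7%. Ache, with 4 matches and 74.0% G or C, had as rich a window as Chrm4 and was lowest in Control replicate 3. The matches are letters in a window and were not tied to binding or to level, and the RefSeq window of Chrm4 lies upstream of the single-exon GENCODE model. That of Chrna4 lies inside the span of its GENCODE gene, 181018380 to 181043546, and not at its end.

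Among the nicotinic subunits, Chrna4 (ENSMUSG00000027577, chromosome 2, 181018380 to 181043546, minus strand) encodes the agonist-binding alpha4 subunit. It was at 20.1, 16.5 and 25.8 CPM in the Control libraries and at 25.5, 20.5, 20.5 and 18.9 CPM in the NIHHL libraries. Control replicates 2 and 3 were the lowest and highest of all 7, so the Control group spanned the NIHHL group. The difference on the log2 scale was 0.04 (SE 0.15, interval -0.30 to 0.38, edgeR, adjusted p = 0.996). Chrna4 was among the more variable genes of its level: 91.8% of 2477 genes within 0.5 log2 units had a within-group SD no larger than its 0.25, which was 3.48 times its counting error. Markers of the thalamus, where Chrna4 is abundant, had their highest summed CPM in the same 2 libraries as Chrna4. The sums were 104 in Control replicate 3 and 103 in NIHHL replicate 1, within a range of 79.2 to 104 over the 7 libraries. The order differed in other libraries. In NIHHL replicate 3 the sum was 101, with Chrna4 at 20.5 CPM. Control replicate 1 had the lowest sum, 79.2, with Chrna4 at 20.1 CPM. Chrna4 was lowest in Control replicate 2, where the sum was 90.1. Plekhg1 and Prkcd were the largest parts of these sums, with means of 27.48 and 26.95 CPM over the 7 libraries. Of the 8 thalamic genes tested 4 were higher and 4 lower in NIHHL (median log2 fold change 0.01), and 3 had an unadjusted p under 0.05, against 3.63% of all tested genes. The part of thalamic tissue in the Chrna4 values was not tested.

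Chrnb2 (ENSMUSG00000027950, chromosome 3, 89746195 to 89764632, minus strand) encodes beta2, the structural partner of alpha4. It was at 68.6, 65.9 and 61.4 CPM in Control and at 62.9, 56.3, 58.7 and 67.6 CPM in NIHHL. Only NIHHL replicates 2 and 3 fell below the Control range. The log2 fold change of -0.09 (SE 0.08) had the smallest unadjusted p of the members, 0.286, with an adjusted p of 0.996 by edgeR. Chrnb2 shares 1365 exon bases, 16.3% of its exons, with Adar on the opposite strand, and it is the only member whose deposited counts carried decimals. Use of strand in counting was not given in the sources used here, so reads from that stretch cannot be assigned to either gene and the level of Chrnb2 is uncertain.

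The partners did not keep a fixed proportion. The ratio of Chrnb2 to Chrna4 in CPM per kilobase was 2.05, 2.40 and 1.43 in the Control libraries and 1.48, 1.65, 1.72 and 2.15 in the NIHHL libraries. The group means of the ratio, 1.96 ± 0.493 and 1.75 ± 0.284, differed by less than either SD.

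Chrna7 (ENSMUSG00000030525, chromosome 7, 63098692 to 63212569, minus strand), which forms the fast calcium-permeable alpha7 receptor, showed the smallest group difference. It was at 16.7, 14.7 and 14.1 CPM in Control and at 15.0, 16.6, 12.9 and 16.1 CPM in NIHHL. The means of 15.2 ± 1.37 and 15.2 ± 1.63 CPM were the same to 3 digits. The log2 fold change was 7.5e-04 (SE 0.11), with a 95% interval of 0.842-fold to 1.19-fold (edgeR, adjusted p = 1.00).

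Ache (ENSMUSG00000023328, chromosome 5, 137287519 to 137294466, plus strand), made by cholinergic neurons and also by cells that receive their input, was at 29.3, 36.0 and 28.7 CPM in Control and at 31.3, 31.2, 29.4 and 32.7 CPM in NIHHL. Control replicate 2 was the highest library and Control replicate 3 the lowest, and the 4 NIHHL values fell between them. Control averaged 31.3 ± 4.07 CPM and NIHHL 31.2 ± 1.39 CPM, a log2 fold change of -0.01 (SE 0.10, interval 0.859-fold to 1.15-fold, edgeR, adjusted p = 1.00). Without Control replicate 2 the log2 fold change of Ache was 0.11 (SE 0.08). With the length trend of each library removed, Ache in Control replicate 2 still stood 0.21 above its mean on the log2 scale. The summed CPM of 8 markers of cholinergic neurons was also highest in that library, at 9.15 against 2.71 to 5.12 in the other 6. The part of those markers in the Ache values was not tested.

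**Figure D2:**
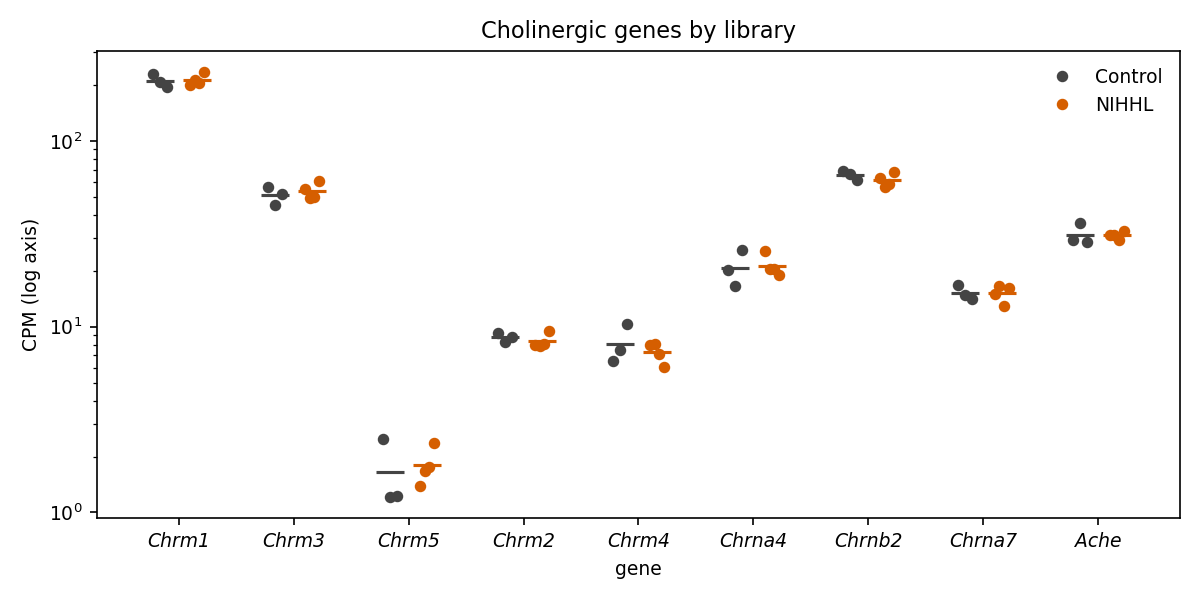
CPM of each gene by library (log axis), with 1 point per library and a bar at the group mean, Control in dark grey and NIHHL in orange. For Ache the NIHHL points lie between the lowest and highest Control points, and no gene has separate ranges.

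Across the members, the group ranges overlapped for all 9 genes, where 5.20% of the 14417 tested genes had ranges that did not overlap. By edgeR's quasi-likelihood test 0 of the 9 had an adjusted p under 0.05, against 0% of all tested genes, and 0 had an unadjusted p under 0.05, against 3.63% of all tested genes. DESeq2 also gave 0 members at either threshold. The log2 fold changes ran from -0.15 for Chrm4 to 0.15 for Chrm5, with 5 members higher and 4 lower and a median of 7.5e-04, beside a median of -4.5e-04 over all tested genes. For 8 members the 95% interval lay within 1.5-fold in either direction and only that of Chrm5 reached beyond. A p above the threshold does not show that the groups were alike.

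**Figure D3:**
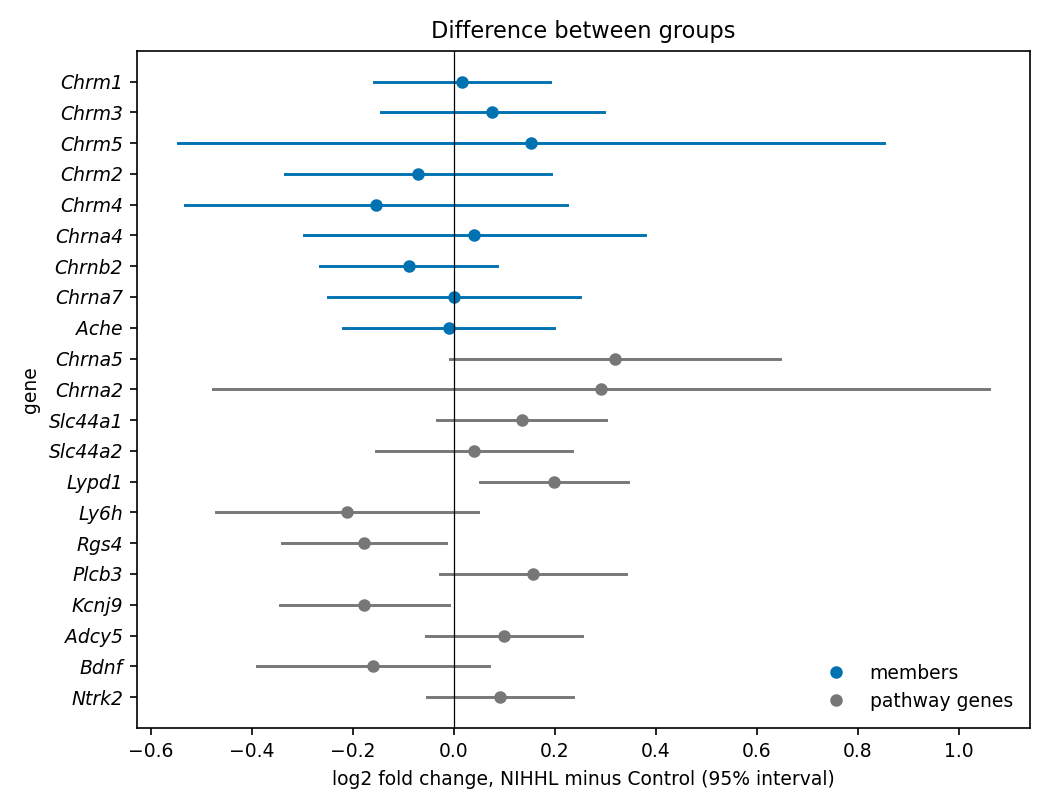
Log2 fold change, NIHHL minus Control, with its 95% interval from edgeR, for the 9 members (blue) and 12 genes of the cholinergic pathway named by rule (grey). Every member's interval includes 0, and Chrm5 has the widest interval among the members.

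The members differed in which libraries they were high in. Chrm1, Chrm2, Chrm3, Chrm5 and Chrnb2 each had their highest 2 values in Control replicate 1 and NIHHL replicate 4. Chrm4 had its lowest 2 values in those same libraries, and its highest in Control replicate 3, where Chrm1 was lowest. Ache ran opposite to Chrna4: Control replicate 2 had the most Ache and the least Chrna4, and Control replicate 3 the reverse. Control replicate 1 and NIHHL replicate 4 are the libraries with more signal from long transcripts, and the exons of Chrm1, Chrm2, Chrm3 and Chrnb2 sum to 6487, 6053, 6253 and 8380 bases, those of Chrm5 to 1599. With a smooth trend on length removed from each library, a step added after the data were seen, the within-group SD went from 0.11 to 0.09 for Chrm1 and from 0.26 to 0.24 for Chrm4. It went up for Chrm5, from 0.43 to 0.53, and stayed at 0.25 for Chrna4. The same 2 libraries still had the highest Chrm1, and Control replicate 3 the highest Chrm4, at 0.43 above its mean on the log2 scale. The lowest Chrm4 value was then in Control replicate 2, at -0.22, and the highest Chrnb2 value too was in that library. The trend was taken at GENCODE lengths, and the models of Chrm4 and Chrm5 are nearly all coding. Their values after this step would be off if reads from untranslated exons had been counted. What set these libraries apart was not tested.

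**Figure D4:**
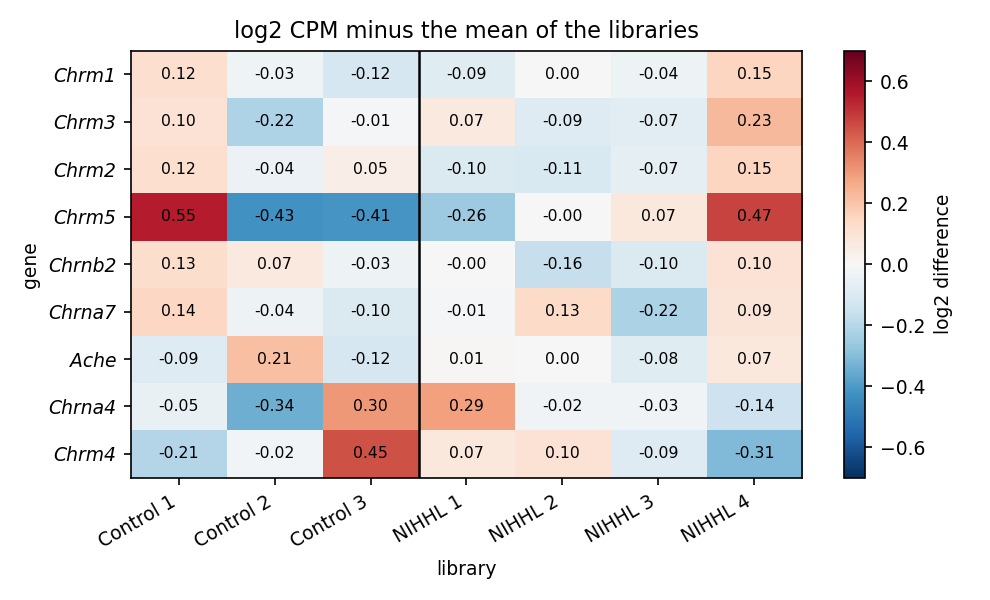
Log2 CPM of each gene in each library minus the gene's mean over the 7 libraries (colour and printed value), with a line between the Control and NIHHL libraries. Chrm5 is at 0.55 in Control replicate 1 and 0.47 in NIHHL replicate 4, while Chrm4 is at -0.21 and -0.31 there and at 0.45 in Control replicate 3.

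The pattern of Chrm1 over the 7 libraries was closest to those of Pwp2, a ribosome biogenesis factor (Pearson r = 0.993), and Sec61a1, the pore of the endoplasmic reticulum translocon (0.991), out of 9826 genes with a mean of at least 10 CPM. That of Ache was closest to Pik3r2, a regulatory subunit of phosphoinositide 3-kinase (0.985), and Gpn1 (0.982), and that of Chrna7 to the mismatch repair gene Mlh3 (0.969) and the mitochondrial gene Fastkd1 (0.966). These coefficients describe 7 libraries that share depth and length trends. They exceeded 0.9 for 155, 31 and 29 genes with Chrm1, Ache and Chrna7.

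Other genes of the pathway were taken from 6 lists written for this comparison. None of their tested genes had an adjusted p under 0.05 by edgeR, where 0% of all tested genes did. Of 13 further nicotinic subunits 5 could be tested, 3 higher and 2 lower in NIHHL (median log2 fold change 0.20). Chrna5, an accessory subunit that joins alpha4 and beta2, was at 4.25, 4.32 and 5.28 CPM in Control and at 6.44, 5.69, 5.56 and 5.37 CPM in NIHHL. Every NIHHL value of Chrna5 lay above every Control value, by a small margin at the border. Of the 5 tested subunits 1 had ranges that did not overlap, against 5.20% of all tested genes. The log2 fold change of Chrna5 was 0.32 (SE 0.15, unadjusted p = 0.0545, adjusted p = 0.996 by edgeR). Chrna2, a subunit of a class of oriens interneurons, had a log2 fold change of 0.29 (SE 0.35) from values of 0.472 to 1.24 CPM, and 0.02 without Control replicate 3. Chrng, a subunit of the fetal muscle receptor, had no count in any library and was not tested. The median over these subunits was below 0 in some alternative fits, at -0.15 with the replicate number as a block and -0.07 without NIHHL replicate 4.

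Assembly factors, protein modulators and esterase anchors were lower in 7 of 9 tested genes (median -0.08). The exception with the smallest p was Lypd1, a membrane-anchored relative of snake toxins that dampens nicotinic receptors. It was at 87.0, 77.5 and 81.4 CPM in Control and at 91.1, 94.9, 97.7 and 92.3 CPM in NIHHL. All 4 NIHHL libraries lay above all 3 Control libraries, with a log2 fold change of 0.20 (SE 0.07, interval 1.04-fold to 1.27-fold, unadjusted p = 0.0125 and adjusted p = 0.996 by edgeR). Of the 9 tested genes of this list 1 had ranges that did not overlap, against 5.20% of all tested genes. Ly6h, a modulator of alpha7 trafficking, had a log2 fold change of -0.21 (SE 0.12), and -0.05 without Control replicate 2. The gene groups for choline handling and acetylcholine synthesis had 4 of 6 tested genes higher (median 0.04), such as the choline transporter-like genes Slc44a1 (0.13, SE 0.08) and Slc44a2 (0.04, SE 0.09). Without Control replicate 2 the value for Slc44a1 was 0.06, and without NIHHL replicate 2 that for Slc44a2 was 0.0033.

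Downstream of the Gq-coupled receptors, 7 of 16 genes were higher and 9 lower (median -0.02). Rgs4, which speeds the shut-off of Gq and Gi signals, was at 163, 183 and 197 CPM in Control and at 157, 160, 167 and 157 CPM in NIHHL. The highest NIHHL library passed only the lowest Control library. The log2 fold change of Rgs4 was -0.18 (SE 0.07, unadjusted p = 0.0337 and adjusted p = 0.996 by edgeR). The phospholipase Plcb3 had a log2 fold change of 0.16 (SE 0.08, unadjusted p = 0.0876 and adjusted p = 0.996 by edgeR), with no overlap between the groups. Of the 16 genes of this list 1 had ranges that did not overlap, against 5.20% of all tested genes. Downstream of the Gi-coupled receptors, 4 of 14 genes were higher and 10 lower (median -0.02). Kcnj9, a subunit of the potassium channel that these receptors open, was at 74.7, 67.1 and 79.2 CPM in Control and at 68.1, 65.2, 66.5 and 60.7 CPM in NIHHL, a log2 fold change of -0.18 (SE 0.08, unadjusted p = 0.0397 and adjusted p = 0.996 by edgeR). The adenylyl cyclase Adcy5 had a log2 fold change of 0.10 (SE 0.07), and 0.04 without Control replicate 3. Trophic factors and receptors of the septal input had 4 of 6 tested genes higher (median 0.03), with -0.16 (SE 0.10) for Bdnf and 0.09 (SE 0.07) for its receptor Ntrk2, which was at 0.04 without Control replicate 2.

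Of 8 markers of cholinergic neurons 3 could be tested, 1 higher and 2 lower in NIHHL (median log2 fold change -0.38). The summed CPM of the 8 was low, at 4.18, 9.15 and 3.30 in Control and at 4.79, 5.12, 4.68 and 2.71 in NIHHL. Control replicate 2 alone stood above the NIHHL range. Chat, the enzyme that makes acetylcholine, had 0 to 7 counts per library, and the vesicular transporter Slc18a3 had 0 to 4. Neither passed the low-count filter. The choline transporter Slc5a7 had 8 to 26 counts and Ecel1, the most abundant of the list, 25 to 118. Of 7 markers of the medial habenula, a nearby nucleus rich in nicotinic subunits, 5 could be tested, 3 higher and 2 lower (median 0.04). Their summed CPM was 190 to 237 in Control and 200.4 to 218 in NIHHL, nearly all from Lmo3 (154 to 200.2 CPM) and Nwd2 (26.3 to 33.4 CPM), while Chrnb4 had 2 to 24 counts and Pou4f1 0 to 2. All 10 choroid plexus markers were higher in NIHHL (median log2 fold change 0.71), and 0 of the 10 had an unadjusted p under 0.05 by edgeR. Their summed CPM ran from 205 to 7143 in Control and from 668.5 to 8702 in NIHHL. All 10 ependymal markers were higher as well (median 0.54), with sums of 56.8 to 77.95 CPM in Control and 86.1 to 109 CPM in NIHHL that did not overlap, and 7 of the 10 had an unadjusted p under 0.05, against 3.63% of all tested genes, and 0 an adjusted p under 0.05 by edgeR. Oligodendrocyte markers were higher in 9 of 10 (median 0.19), and 5 of the 10 had an unadjusted p under 0.05 and 0 an adjusted p under 0.05, with sums of 7293 to 9142 CPM in Control and 8398 to 9875 CPM in NIHHL that overlapped. All 10 dentate granule cell markers (median 0.16) and all 10 astrocyte markers (median 0.08) were higher, and interneuron markers were lower in 10 of 14 (median -0.03). An unadjusted p under 0.05 by edgeR was found for 1 dentate, 1 astrocyte and 0 interneuron markers. The part of these cell types in the small differences of the cholinergic genes was not tested.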

How the data were processed

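RNA was measured in 3 Control and 4 NIHHL hippocampal libraries, from poly(A)-selected RNA sequenced on an Illumina NovaSeq, per the labels' protocols. The authors deposited expected counts per gene, unscaled, and 90.7% of the values were whole numbers. HISAT2, StringTie 1.3.1, Bowtie2 2.2.8 and DESeq2 are listed, per the submitters' processing notes. The build, annotation, strand setting and counter were not given in the sources used here.

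Expected counts were rounded. Genes were kept by filterByExpr (minimum count 10), libraries scaled by TMM, and NIHHL compared with Control over all 14417 genes by edgeR's robust quasi-likelihood test, with Benjamini-Hochberg adjustment over all of them and calls at an adjusted p under 0.05. The SE is the log2 fold change over the square root of F. Log2 CPM carries a prior count of 2. Exon lengths were unions from GENCODE vM21, which matched 21854 of 21965 genes. Counting error was below the spread between libraries for 8 of the 9 members and at that spread for Chrm2. Tools were R 4.3.3, edgeR 4.0.16, limma 3.58.1 and DESeq2 1.42.0, and the fits were tested on simulated data. Alternatives were other size factors, no filter, DESeq2, limma-voom, a replicate block, a length offset and leaving out each library.

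The members and the lists (206 of 207 genes matched) were chosen with earlier results of these data known. Named genes were the 9 members, the 2 genes with the smallest p in each pathway list, and the 2 closest patterns to Chrm1, Chrna7 and Ache. Chrng and the cell markers were named from their lists after their values were seen.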

Additional observations from a re-analysis of the deposited data

Results flagged for a closer look

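Chrm2 in NIHHL replicate 4 stood apart from the rest of its group. It was at 9.44 CPM there and at 7.92, 7.87 and 8.09 CPM in NIHHL replicates 1 to 3, and the gap to the nearest library was 0.859 of the group's range, above Dixon's 95% critical value for 4 samples. Of 24 quantities checked in the NIHHL group this was the 1 marked, and chance marks about 5% of groups. Without NIHHL replicate 4 the log2 fold change of Chrm2 was -0.13. Chrm1 and Chrm3 were also highest in that library, at 235 and 61.2 CPM. NIHHL replicate 4 is a library with more signal from long transcripts (correlation with length 0.52), and Chrm2 has 6053 exon bases. With the length trend removed, Chrm2 there was 0.12 above its mean over the 7 libraries on the log2 scale. In NIHHL replicates 1 to 3 it was then at -0.09, -0.11 and -0.06. Counting error on Chrm2 was 0.113 on the log2 scale, beside a within-group SD of 0.107. The parts of length and of counting error in the value of NIHHL replicate 4 were not tested.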

How the results depend on the processing

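Of 13 alternatives, DESeq2 alone called any gene: 4 of 18177 with a p, none a member, and the members at an unadjusted p under 0.05 were 0 in all 13 (lowest p 0.0954, lowest adjusted p 0.821). Of 117 recomputed member log2 fold changes 18 changed sign, in 7 members. Leaving out 1 library at a time gave -0.0361 to 0.0804 for Chrm1 (sign changed without Control 3 or NIHHL 4), -0.00523 to 0.149 for Chrm3 (Control 2), -0.0237 to 0.543 for Chrm5 (Control 2, Control 3 or NIHHL 4), -0.279 to 0.0584 for Chrm4 (Control 3), -0.104 to 0.23 for Chrna4 (Control 2 or NIHHL 1), -0.0500 to 0.0718 for Chrna7 (Control 2, Control 3, NIHHL 2 or NIHHL 4) and -0.0712 to 0.108 for Ache (Control 2 or NIHHL 3). Chrm2 (-0.13 to -0.03) and Chrnb2 (-0.14 to -0.05) kept their sign. The length offset gave Chrna7 -3.4e-04. Replicate numbers pair no libraries by the labels, and same-numbered libraries deviated with correlations of -0.52, -0.33 and -0.04 across genes. The fit with the replicate number as a block called 0 genes and gave -0.0318 for Chrm1 and -0.0346 for Chrna7. The median over the 5 tested further nicotinic subunits was -0.15 with that block, -0.01 by limma-voom, 0.02 without Control replicate 3 and -0.07 without NIHHL replicate 4. Counting error was largest for Chrm5, at 26 to 40 counts. The cause of these changes was not tested.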

Other observations

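Lypd1 had an unadjusted p under 0.05 in 13 of 13 alternative analyses, with log2 fold changes from 0.16 to 0.24, and the lowest adjusted p among them was 0.815. Rgs4 and Kcnj9 each had an unadjusted p under 0.05 in 7 of 13, always lower in NIHHL, with log2 fold changes from -0.25 to -0.11 and from -0.24 to -0.12. Chrna5 ranged from 0.26 to 0.43 and had an unadjusted p under 0.05 in 3 of 13. These genes have the smallest p of their lists, so the values describe these libraries and support nothing further.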
